A study of Drosophila melanogaster with 384 samples.

Results

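The comparison is between male flies of the DGRP lines with the highest and the lowest levels of antimicrobial peptide (AMP) transcripts on ethanol-supplemented medium. In each male library the counts of AttA, AttB, AttC, DptA, DptB, Dro, Drs and Mtk were scaled to CPM (counts per 1000000 counts of the library), the mean of log2(CPM + 1) over these 8 genes was taken, and the average over the 2 replicates of a line was its AMP score. The 24 lines with the highest scores (high lines) were set against the 24 lines with the lowest scores (low lines), so that 48 of 96 lines and 96 of the 384 libraries of the series entered. DGRP lines are inbred lines founded from wild flies, and each library came from a pool of 30 whole males of 1 line, young adults whose whole development had taken place on medium with 10% ethanol. High and low lines therefore shared the medium and the sex and differed in genotype, and infection or Wolbachia status was not used here. Females of the same 48 lines, in pools of 25 whole flies, were used for comparison. Because the AMP levels of males chose the lines, the 8 genes are described without a test in these male groups, and all other transcripts were tested.

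Flies make no antibodies, and AMPs secreted by the fat body and by barrier epithelia are a main arm of their defence against bacteria and fungi. Bacterial peptidoglycan is sensed by peptidoglycan recognition proteins (PGRPs), which feed the IMD pathway and its NF-κB factor Relish, whereas other bacterial and fungal patterns start a protease cascade that cleaves Spätzle, the ligand of the receptor Toll, and frees the NF-κB factors Dif and Dorsal. Attacins, diptericins and drosocin are classical IMD targets, drosomycin (Drs) and the Bomanins are classical Toll targets, and metchnikowin (Mtk) responds to both.

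Total counts per male library were between 7552304 and 15556571 in high lines (median 10283410) and between 7888957 and 17401404 in low lines (median 10148259). The male markers were abundant in all of these libraries: 12 accessory gland genes summed to between 3814 and 11444 CPM in high lines and between 3543 and 9175 CPM in low lines, and 16 testis genes to between 2157 and 5084 CPM and between 2308 and 5243 CPM in high and low lines. Alignments that matched more than 1 place were not counted on any gene, so the levels of near-identical paralogs such as AttA and AttB are uncertain. How far this bears on less similar paralogs, such as DptA and DptB or the Bomanins, was not measured. CPM values are not scaled by transcript length and are compared between groups of lines, never between genes. Fewer cells that make a transcript and less RNA per cell cannot be told apart in libraries of whole flies.

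Male libraries of 6 high lines carried transcripts of female tissue. The summed level of 13 markers of yolk, chorion and vitelline membrane was over 250 CPM in 1 replicate each of DGRP_176 (4078 CPM), DGRP_40 (2443 CPM), DGRP_158 (1476 CPM), DGRP_83 (994 CPM), DGRP_852 (825 CPM) and DGRP_837 (292 CPM). It was at most 89.8 CPM in the libraries of the other 18 high lines and at most 88.7 CPM in those of the 24 low lines, where the median was 16.7 CPM and Vm26Aa and Vm26Ab were each at 0 in 40 of 48 libraries. Results are therefore also given without these 6 lines, an alternative chosen after the data were seen.

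**Figure D1:**
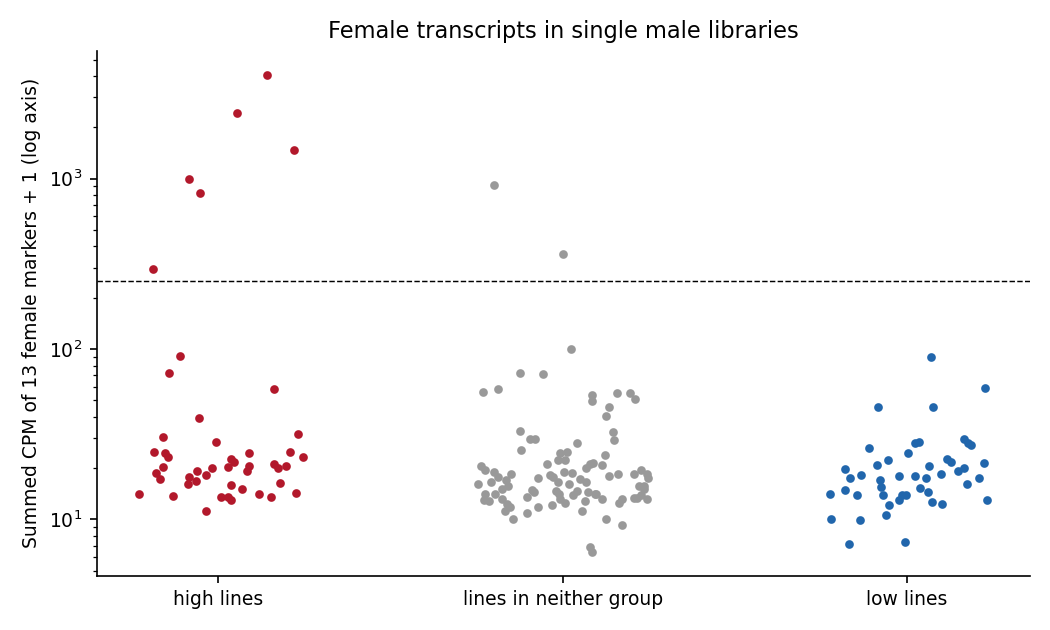
Summed CPM + 1 of 13 female markers (log axis) in each male library, by group of lines, where a point is 1 library and the dashed line is the limit of 250 CPM. In 6 high lines 1 library lies above the line, the highest at 4078 CPM, 2 libraries above it belong to lines in neither group, and no library of a low line is above 88.7 CPM.

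AMP scores of the high lines lay between 4.22 and 5.91 (median 4.77), and those of the low lines between 1.16 and 2.50 (median 2.24). DGRP_727 had the highest score and DGRP_850 the lowest. The ranking had no gap at either limit: DGRP_837, the last high line, scored 4.22 and DGRP_589, the first line left out, 4.15, while DGRP_217, the last line left out, scored 2.52 and DGRP_783, the first low line, 2.50. Of the 48 single libraries of high lines, 47 scored above the highest library of a low line (3.02). The exception was replicate 1 of DGRP_805, which scored 2.71 against 5.81 in replicate 2, and the females of this line had 2.93 in replicate 1 and 6.0 in replicate 2.

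**Figure D2:**
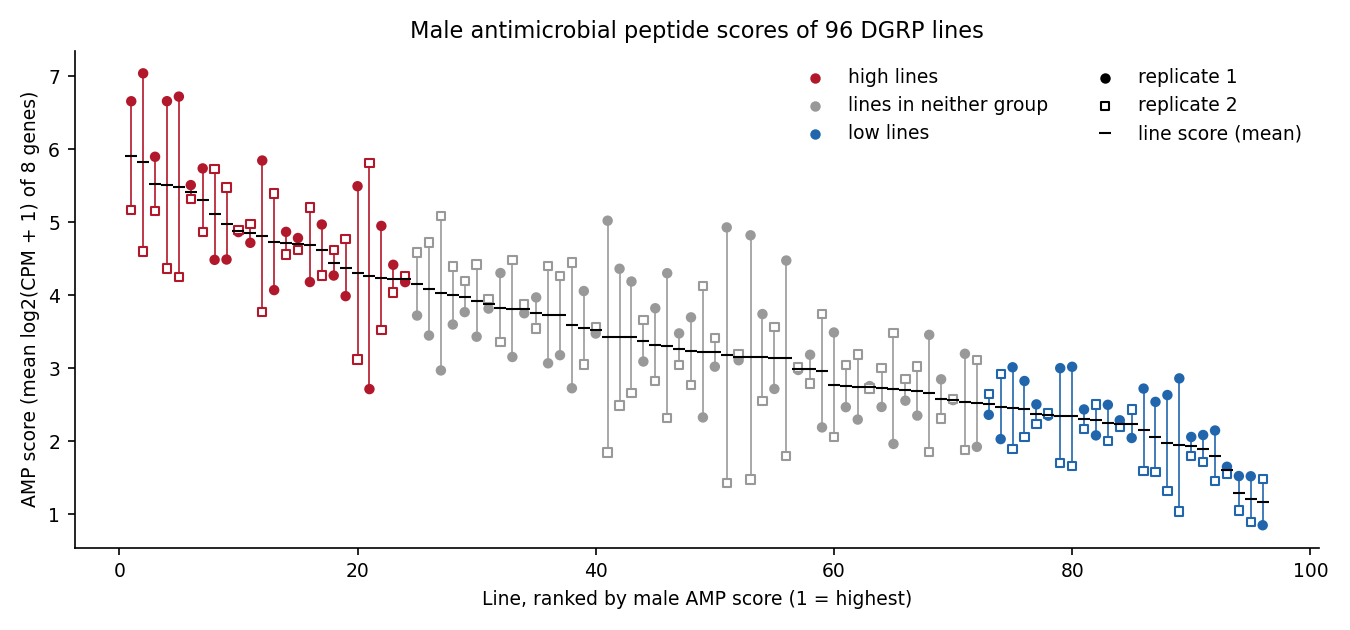
AMP score, the mean of log2(CPM + 1) over 8 genes, of both male replicates (filled circle, replicate 1; open square, replicate 2) and their mean (bar) for 96 DGRP lines ranked from highest to lowest. High lines span 4.22 to 5.91 and low lines 1.16 to 2.50, and replicates of 1 line are often further apart than neighbouring lines.

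Replicates of a line differed by a median of 0.93 in score in the high lines and 0.56 in the low lines. Across all 96 lines the scores of replicates 1 and 2 were correlated (Pearson r = 0.51, Spearman rho = 0.50, permutation p = 1e-05 for both, the smallest 100000 permutations can give, and 1e-05 after Benjamini-Hochberg (BH) adjustment over 2 relations), and r was 0.50 without the 2 lines farthest from the median. In males of 76 lines, flow cell A held replicate 1 and flow cell B held the other replicate (set AB), and r was 0.56 in these 76 lines and 0.36 (permutation p = 0.116) in the other 20, which were on other flow cells or pairs of them. Ranking on 1 replicate alone put 18 of the 24 high lines in the top 24 of replicate 1 and 16 in the top 24 of replicate 2, with 11 lines in both, and put 9 of the 24 low lines among the lowest 24 in both replicates.

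The 8 genes of the score, given as lowest, median and highest line, differed in how fully they separated the lines that they had chosen. The attacins, which act on Gram-negative bacteria, were among the clearest: AttA had 10.8, 27.9 and 108 CPM in high lines, against 0.195, 2.63 and 8.0 CPM in low lines. AttB had 9.42, 18.6 and 65.6 CPM in high lines, against 0.242, 2.45 and 8.05 CPM in low lines. AttC had 15.3, 67.1 and 138 CPM in high lines, against 1.17, 5.79 and 17.2 CPM in low lines. All 24 high lines were above the highest low line for AttA and AttB, and 23 were for AttC, with DGRP_805 as the exception.

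Diptericins are a further family that acts on Gram-negative bacteria. DptA had 9.89, 40.2 and 116 CPM in high lines, against 0.0949, 2.55 and 14.8 CPM in low lines, and 21 high lines were above the highest low line. DptB had 9.74, 24.9 and 66.8 CPM in high lines, against 0.152, 2.69 and 7.10 CPM in low lines, with no overlap. For both genes the lowest high line was DGRP_40 and the lowest low line was DGRP_850. Dro, which encodes drosocin, had 3.89, 9.43 and 37.6 CPM in high lines, against 0, 0.909 and 4.23 CPM in low lines, and 23 high lines were above the highest low line.

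Metchnikowin is a proline-rich peptide with activity against fungi and bacteria. Mtk had 14.7, 51.6 and 170 CPM in high lines, against 1.89, 4.66 and 8.99 CPM in low lines, and the groups did not overlap. Drosomycin is an antifungal peptide. Drs had 18.6, 62.2 and 258 CPM in high lines, against 5.43, 13.9 and 42.7 CPM in low lines, and only 17 high lines were above the highest low line, which for Drs was DGRP_850, the line with the lowest score of all. The highest Drs level was that of DGRP_83, 1 of the 6 lines with female transcripts, and without those lines the median stayed at 62.2 CPM and the highest level was 206 CPM. Over all 96 male lines the 28 pairs of the 8 genes had Pearson correlations between 0.47 and 0.92 (median 0.71), and the 7 pairs with Drs lay between 0.47 and 0.61, which is a description of genes measured in the same libraries.

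Between the extremes the levels also ran in the order of the score, which these genes themselves set, so the order is a description and not a result. In 4 sets of 24 lines from the lowest to the highest scores, the median Mtk level was 4.66, 8.67, 19.7 and 51.6 CPM and the median DptA level was 2.55, 6.92, 17.4 and 40.2 CPM. The median Drs level in the same sets was 13.9, 18.3, 25.6 and 62.2 CPM.

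**Figure D3:**
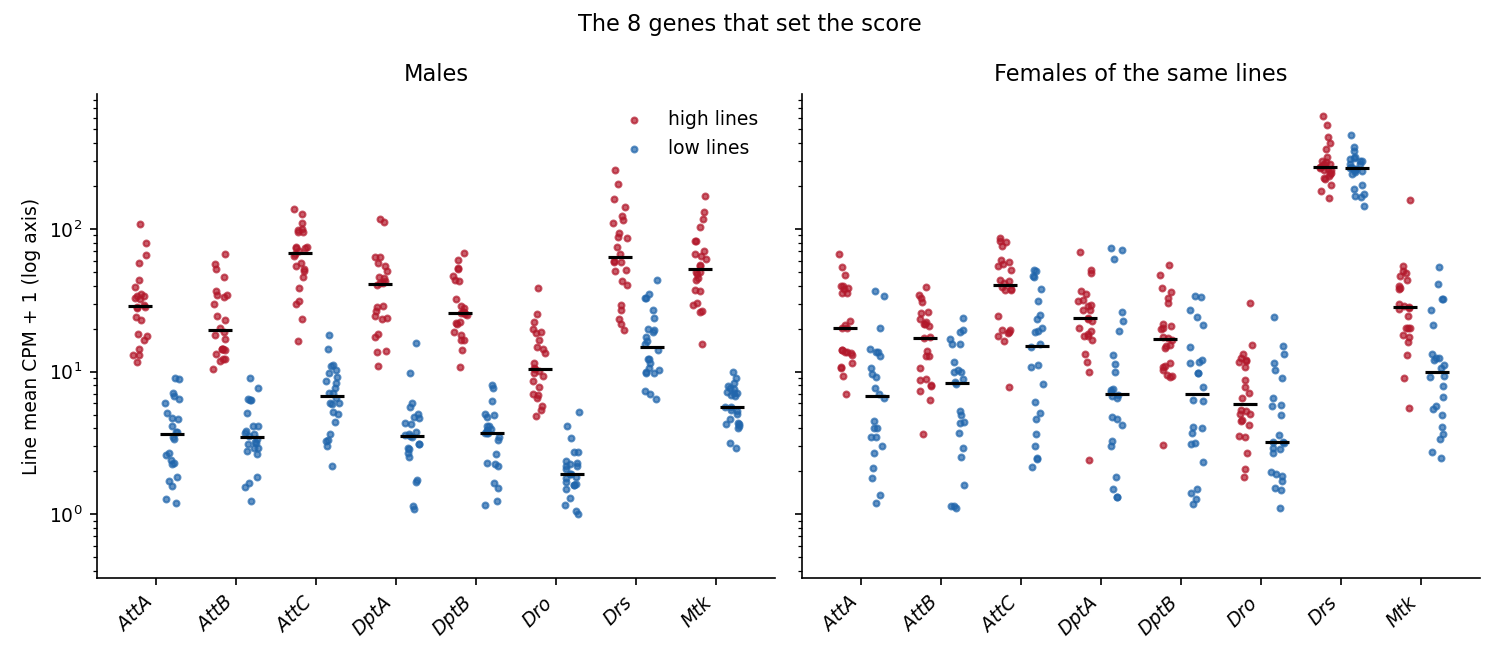
Levels of the 8 genes of the score (line mean CPM + 1, log axis) in males and in females of the same lines, with the 24 high lines left of the 24 low lines for each gene, where a point is 1 line and the bar the median. In males AttA, AttB, DptB and Mtk show no overlap, whereas in females all 8 genes overlap and Drs has medians of 269 CPM in high lines and 265 CPM in low lines.

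The 8 genes could be tested in libraries that had not chosen the lines. When lines were ranked on replicate 1 and the replicate 2 libraries of the top 24 and lowest 24 lines were compared, 99 of 18988 transcripts (0.521%) passed an adjusted p of 0.05 (edgeR quasi-likelihood F-test with BH adjustment). Of the 8 genes, 7 were among them, with log2 fold changes between 1.66 for AttB (SE 0.39, adjusted p = 0.0252) and 2.45 for Mtk (SE 0.39, adjusted p = 0.00181), and Drs was not (1.18, SE 0.37, adjusted p = 0.231). With ranking on replicate 2 and testing in replicate 1, 81 of 18867 transcripts (0.429%) passed, among them AttA (2.36, SE 0.43, adjusted p = 0.0104), AttB (2.18, SE 0.40, adjusted p = 0.0104), Drs (1.75, SE 0.34, adjusted p = 0.0118) and Mtk (1.68, SE 0.41, adjusted p = 0.0389). AttC, DptA, DptB and Dro had positive fold changes of 1.14, 1.22, 1.46 and 1.09 there and did not pass. Without the 6 lines the calls of AttB in replicate 2 (adjusted p = 0.0764) and of Mtk in replicate 1 (adjusted p = 0.0684) were lost, and the other calls of the 8 genes were kept (0.242% and 0.345% of all transcripts passed in these fits).

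Outside the score, 435 of 18975 transcripts (2.29%) differed between high and low male lines, 340 higher (1.79%) and 95 lower (0.501%) in the high lines. Annotated genes made up 304 of the higher and 39 of the lower transcripts, and the others were new transcribed regions. The median log2 fold change of the higher transcripts was 0.37, and 70 annotated genes were higher by more than 1. Without the 6 lines with female transcripts, 395 transcripts passed (2.08%, with 1.74% higher), 286 of them among the 435, and 38 of the 70 annotated genes were still called. Of the 435, 26 were not tested in that fit. When the scaling factors for composition were left out, 206 transcripts were higher and 101 lower (67.1% of calls higher, against 78.2% with them). With limma-voom on single libraries, with line as a block and replicate number as a covariate (replicate block), 280 transcripts passed. Limma-voom on summed replicates called 154.

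Several other AMP genes rose with those of the score. Of 14 such genes, 11 were tested and 5 rose, against 1.79% of all transcripts tested, and none fell. The median log2 fold change of the 11 was 0.91, against -0.0020 over all transcripts tested. The same 5 genes were called without the 6 lines. In the held-out tests 3 of them passed in replicate 2 (CecC, Def and edin) and the other 2 in replicate 1 (AttD and CecA2), and CecC missed the threshold in replicate 2 when the 6 lines were left out (adjusted p = 0.0572).

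Cecropins are membrane-active helical peptides, of which CecC and CecA2 rose. CecC had 0.371, 1.70 and 10.1 CPM (lowest, median and highest line) in high lines, against 0, 0.173 and 1.53 CPM in low lines (log2 fold change 3.20, SE 0.41, adjusted p = 1.4e-06). The groups overlapped, with 12 high lines above the highest low line and all 24 above the low median. CecA2 had a log2 fold change of 2.64 (SE 0.41, adjusted p = 0.000113), while CecA1 had a median of 31.2 CPM in high lines and 12.9 CPM in low lines and did not pass (0.91, SE 0.34, adjusted p = 0.15). In CecA1 1 high line, DGRP_439, was at 0.149 CPM, under every low line.

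The gene edin, an induced peptide gene of the larval and adult immune response, had 0.533, 2.76 and 33.0 CPM in high lines, against 0.356, 0.603 and 1.16 CPM in low lines (2.74, SE 0.32, adjusted p = 2.31e-07), and 20 high lines were above all low lines. AttD, an attacin without a signal peptide, rose by 2.69 on the log2 scale (SE 0.46, adjusted p = 0.000417), with 7 high lines above all low lines. Def, the defensin gene, had 2.97, 9.65 and 34.8 CPM in high lines, against 0.156, 2.4 and 9.80 CPM in low lines (2.01, SE 0.32, adjusted p = 0.000158). Paralogs of Drs did not follow: Drsl2, Drsl3, Drsl4 and Drsl5 had log2 fold changes of 0.50, 0.78, 0.37 and 0.17, none of which passed. Anp, a male-specific peptide gene of the ejaculatory duct, had medians of 223 CPM in high lines and 228 CPM in low lines (-0.07, SE 0.13, adjusted p = 0.823).

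Bomanins are short secreted peptides induced through Toll, and Daisho peptides (Dso1, Dso2) are antifungal peptides of the same pathway. Of 16 tested genes in this group 11 rose, against 1.79% of all transcripts tested. All 16 had positive fold changes, also under both other scalings, and the median log2 fold change was 1.05. Without the 6 lines 10 rose, since BomS4 no longer passed (0.50, SE 0.14, adjusted p = 0.0427 with them and 0.0928 without them). BomS4 also missed the threshold without DGRP_437 (adjusted p = 0.0621), without DGRP_805 (adjusted p = 0.0521) and within set AB (adjusted p = 0.121), where BomBc1 missed it too (adjusted p = 0.0865).

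BomS2 had 75.2, 249 and 787 CPM in high lines, against 40.0, 102 and 377 CPM in low lines (1.29, SE 0.24, adjusted p = 0.000999), and 22 high lines were above the low median. BomS1 had 0.291, 80.2 and 301 CPM in high lines, against 8.84, 32.7 and 72.1 CPM in low lines (1.57, SE 0.30, adjusted p = 0.00132). Its lowest high line was DGRP_805, and with the replicate block in limma-voom BomS1 did not pass (adjusted p = 0.0802). The other genes that rose were BomBc1 (1.83), BomS5 (1.26), BomT1 (1.20), BomBc3 (1.09), Dso1 (1.06), Dso2 (1.04), BomS3 (0.76) and IM33 (0.52), as log2 fold changes. BomT2 (0.58), BomT3 (0.56), BomS6 (0.43), BomBc2 (0.40) and SPH93 (1.74, SE 0.64), a serine protease homolog, did not pass. In the held-out replicates none of the 16 passed edgeR's test, with the smallest adjusted p at 0.0726 for BomBc1, while 8 had an unadjusted p under 0.05 in replicate 2 and 11 in replicate 1.

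**Figure D4:**
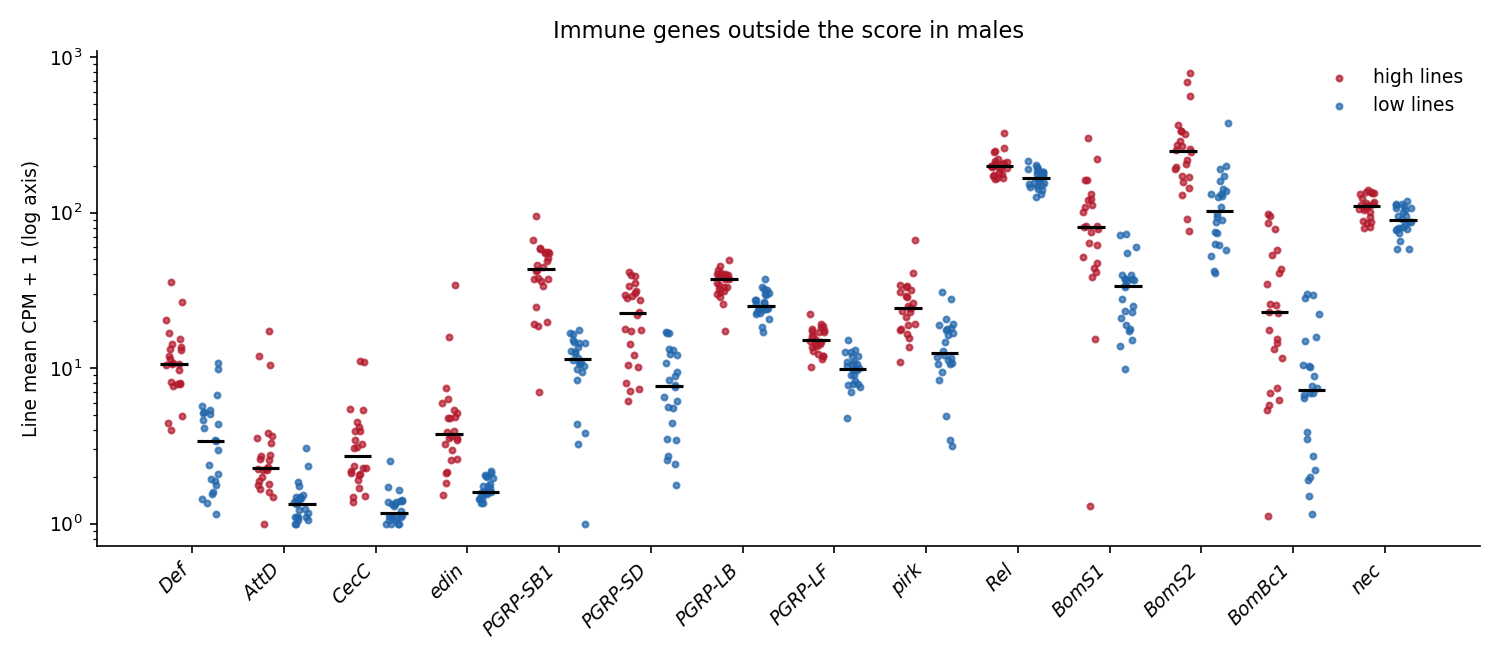
Levels of 14 immune genes outside the score (line mean CPM + 1, log axis) in males, with the 24 high lines left of the 24 low lines for each gene, where a point is 1 line and the bar the median. Separation is clearest for PGRP-SB1 and edin, where 23 and 20 high lines lie above all low lines, and Rel and nec differ by small shifts of overlapping groups.

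PGRPs bind peptidoglycan, and some cut it. Of 12 tested genes 7 rose, against 1.79% of all transcripts tested, and none fell. The median log2 fold change was 0.54, and the same count held without the 6 lines. PGRP-SB1, a secreted amidase that cleaves peptidoglycan, had 6.03, 42.7 and 93.7 CPM in high lines, against 0, 10.4 and 16.6 CPM in low lines (2.11, SE 0.25, adjusted p = 2.56e-07). All high lines except DGRP_176 were above the highest low line. PGRP-SB1 also passed in both held-out replicates (1.36, adjusted p = 0.041, in replicate 2 and 1.09, adjusted p = 0.0422, in replicate 1), and PGRP-SD and PGRP-LB passed in replicate 1. With the 6 lines left out, PGRP-SB1 (adjusted p = 0.0684) and PGRP-LB (0.0547) missed the threshold in replicate 1, and PGRP-SD did not (0.0435).

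Recognition proteins of both pathways were among those that rose. PGRP-SD, which binds peptidoglycan in the hemolymph, had 5.15, 21.4 and 40.6 CPM in high lines, against 0.757, 6.68 and 16.0 CPM in low lines (1.6, SE 0.28, adjusted p = 0.000604), with 16 high lines above all low lines. PGRP-SA, which acts ahead of Toll, rose by 0.52 on the log2 scale (SE 0.10, adjusted p = 0.00233). PGRP-LC, the main membrane receptor of the IMD pathway, rose by 0.57 (SE 0.13, adjusted p = 0.00823), and PGRP-LA by 0.22 (SE 0.06, adjusted p = 0.0296, and 0.0782 within set AB). PGRP-LE, an intracellular receptor, had medians of 25.1 CPM in high lines and 24.3 CPM in low lines and did not pass (0.09, SE 0.04, adjusted p = 0.182).

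PGRPs that restrain the IMD pathway were also higher. PGRP-LF, a membrane protein that binds PGRP-LC and does not signal, had 9.13, 14.1 and 21.2 CPM in high lines, against 3.80, 8.92 and 14.0 CPM in low lines (0.71, SE 0.10, adjusted p = 1.2e-05), and all 24 high lines were above the low median. PGRP-LB, an amidase that degrades peptidoglycan, had medians of 36.4 CPM in high lines and 24.1 CPM in low lines (0.51, SE 0.08, adjusted p = 0.000208). The gut amidase PGRP-SC2 had medians of 38.1 and 34.6 CPM in high and low lines (0.32, SE 0.33, adjusted p = 0.657), and PGRP-SC1a, PGRP-SC1b and PGRP-LD did not pass either.

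Most genes of the signalling core of the IMD pathway differed little. Of 19 tested genes 3 rose (15.8%, against 1.79% of all transcripts tested), none fell and the median log2 fold change was 0.03. The gene pirk, which encodes an inhibitor that binds PGRP-LC, had 9.88, 23.2 and 66.1 CPM in high lines, against 2.15, 11.5 and 29.9 CPM in low lines (0.96, SE 0.21, adjusted p = 0.004). Rel, which encodes Relish, had 164, 199 and 324 CPM in high lines, against 124, 165 and 214 CPM in low lines (0.33, SE 0.06, adjusted p = 0.00203), and 23 high lines were above the low median. Uev1A, a ubiquitin-conjugating enzyme variant of the pathway, rose by 0.13 (SE 0.03, adjusted p = 0.0046). The adaptor imd had medians of 24.4 CPM in high lines and 24.2 CPM in low lines (0.02, SE 0.08, adjusted p = 0.933), and the other 15 genes, among them Fadd, Dredd, Tak1 and key, had log2 fold changes between -0.08 and 0.16. In the held-out replicates none of the 19 passed edgeR's test, and 4 had an unadjusted p under 0.05 in replicate 2 and 2 in replicate 1.

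In the Toll pathway 4 of 22 tested genes rose (6 with DESeq2 and 1 with limma-voom), against 1.79% of all transcripts tested, and none fell. The median log2 fold change was 0.13, and all 22 fold changes were positive, whereas 20 were with total counts as the only scaling. SPE, the protease that cleaves Spätzle, had medians of 94.1 CPM in high lines and 74.6 CPM in low lines (0.47, SE 0.13, adjusted p = 0.0279). The serpin nec, which restrains the cascade, had 78.4, 110 and 139 CPM in high lines, against 57.7, 88.4 and 117 CPM in low lines (0.33, SE 0.08, adjusted p = 0.0199). The ligand spz (0.19, SE 0.05, adjusted p = 0.0466) and the receptor Tl (0.18, SE 0.05, adjusted p = 0.027) rose by less and were not called without the 6 lines (adjusted p = 0.0965 and 0.111), and spz was not called without DGRP_437 (adjusted p = 0.0684) or with the replicate block (adjusted p = 0.0838) either. The NF-κB genes Dif (0.13, adjusted p = 0.0607) and dl (0.05, adjusted p = 0.609) did not pass. Within set AB alone none of the 22 passed edgeR's test (11 had an unadjusted p under 0.05), while 24 of the 80 genes in the AMP, Bomanin, PGRP, IMD and Toll groups rose (1.23% of all transcripts did, and 1.52% changed), against 30 of 80 in all lines.

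**Figure D5:**
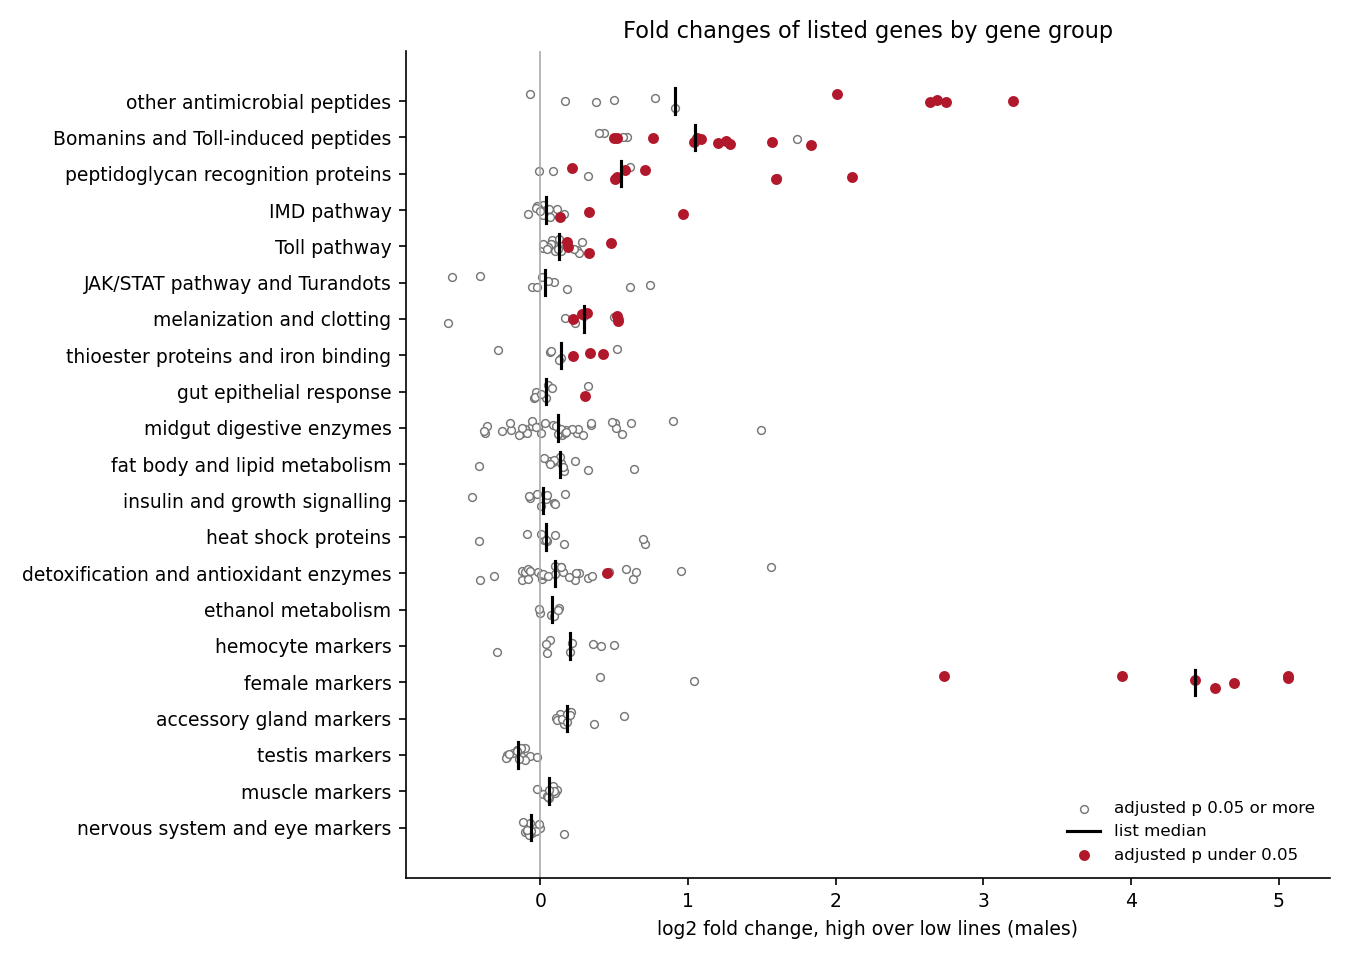
Log2 fold change between high and low male lines of each tested gene in 21 gene groups, filled where the adjusted p was under 0.05, with the group median as a bar. Calls concentrate in the AMP, Bomanin and PGRP groups (5 of 11, 11 of 16 and 7 of 12), where 1.79% of all transcripts tested were called higher. Of the female markers 7 of 9 were called. Without the 6 lines that carry female transcripts only 4 of them were tested, and none was called.

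JAK/STAT signalling, which responds to wounds and stress, and its Turandot target peptides gave no call over all 48 lines. None of 10 tested genes passed there with edgeR, DESeq2 or limma-voom, 2 had an unadjusted p under 0.05, and the median log2 fold change was 0.03. The cytokine gene upd3 had 0.309, 0.666 and 3.46 CPM in high lines, against 0.139, 0.519 and 1.85 CPM in low lines (0.74, SE 0.23, adjusted p = 0.0777), and passed within set AB (1.06, SE 0.26, adjusted p = 0.0267). TotA had a median of 36.3 CPM in high lines and 34.1 CPM in low lines, its highest line was a low line at 504 CPM, and it did not pass (-0.60, SE 0.51, adjusted p = 0.564).

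Genes of clotting and melanization were higher by small amounts in 5 of 11 cases, against 1.79% of all transcripts tested, and none fell. They were fon, a clot protein (0.52, SE 0.09, adjusted p = 0.000604), Tig, an extracellular matrix protein (0.52), the serpins Spn77Ba (0.22) and Spn28Dc (0.28), and the protease Sp7 (0.31, adjusted p = 0.0368), which was not called without DGRP_437 (adjusted p = 0.0586) or without the 6 lines (0.0691). Without the 6 lines 5 of 11 rose as well, so a gene outside these 5 was called there. For fon the levels were 137, 220 and 288 CPM in high lines, against 98.8, 153 and 248 CPM in low lines, with 7 high lines above all low lines. Among 9 thioester protein and iron-binding genes 3 rose, against the same 1.79%. They were the opsonin-like Tep2 (0.42, adjusted p = 0.00361), Tep4 (0.33, adjusted p = 0.0492) and the transferrin Tsf3 (0.22, adjusted p = 0.0299). Both Tep4 and Tsf3 lost the call without DGRP_437 (adjusted p = 0.0684 and 0.0517), and within set AB none of the 3 passed (adjusted p between 0.0547 for Tep2 and 0.148 for Tep4).

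Markers of blood cells, organs and general stress gave few calls. Hemocyte markers had a median log2 fold change of 0.20 with none of 9 called, and their summed level was between 638 and 1494 CPM in high lines (median 917) and between 560 and 1272 CPM in low lines (median 775), and its part in the immune results was not tested. Of 39 midgut digestive enzymes none passed (median 0.12), of 13 fat body and lipid genes none (0.13), of 9 genes of the gut epithelial response only Irc, an immune catalase (0.30, adjusted p = 0.0471), and of 33 detoxification and antioxidant genes only MtnA, a metallothionein (0.45, adjusted p = 0.0374). Neither Irc nor MtnA was called without DGRP_437 (adjusted p = 0.0722 and 0.0603) or within set AB (0.155 and 0.0658), nor Irc without the 6 lines (0.101). Conversely, the fat body lipophorin gene apolpp (0.36, SE 0.10, adjusted p = 0.0485, against 0.0528 with them) and the glutathione transferase gene GstE9 (0.40, SE 0.11, adjusted p = 0.0357, against 0.106 with them) passed when those lines were left out. With the replicate block, a limma-voom fit on single libraries, the insulin-like peptide gene Ilp3 was lower in high lines (-0.54, SE 0.15, adjusted p = 0.0404). In edgeR's main fit Ilp3 had a log2 fold change of -0.47 (adjusted p = 0.111). None of 6 genes of ethanol metabolism (median 0.08), 10 of insulin signalling (0.02), 11 heat shock protein genes (0.04), 12 accessory gland genes (0.18), 16 testis genes (-0.15), 10 muscle genes (0.06) or 12 nervous system and eye genes (-0.07) was called in edgeR's test. Unadjusted p was under 0.05 for 6 testis, 5 hemocyte, 4 accessory gland, 2 midgut, 2 fat body, 2 insulin, 1 ethanol and 1 heat shock genes, and of all these groups only 1 fat body gene was called by DESeq2 and none by limma-voom without the block. All 16 testis genes had negative fold changes under each of the 3 scalings, between -0.23 and -0.02 under the main one. Without the 6 lines all 16 stayed negative. Unadjusted p was then under 0.05 for 1 testis gene and 7 accessory gland genes, and none of these was called.

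Among annotated genes that averaged 50 or more counts per library, passed and kept their direction in both held-out replicates, the 6 largest increases belonged to transcripts of female tissue. The yolk protein gene Yp1 had 0.311, 3.30 and 807 CPM in high lines, against 0.719, 1.82 and 16.7 CPM in low lines, with a log2 fold change of 4.69 (adjusted p = 0.000262) that was 0.30 (adjusted p = 0.755) without the 6 lines. Yp2 (4.43), osk (4.11), yl (3.24), Yp3 (2.73) and the oocyte gene dhd (2.66) behaved alike and had fold changes between -0.16 and 0.30 without those lines. A further call rested on 1 line: CG43134 had a log2 fold change of 2.13 (adjusted p = 0.025) and 0.23 (adjusted p = 0.752) without DGRP_437, where it was at 461 CPM.

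Of the other genes named by size of change, PGRP-SB1, Def, BomBc1 and PGRP-SD are given above. The remaining one, CG4757, had 3.38, 45.0 and 284 CPM in high lines, against 1.47, 12.7 and 70.2 CPM in low lines (2.05, SE 0.43, adjusted p = 0.00363). Some immune-induced genes outside these groups were named after their values were seen. Listericin, an induced antibacterial peptide gene, had 6.47, 23.1 and 47.7 CPM in high lines, against 1.6, 7.16 and 15.9 CPM in low lines (1.57, SE 0.21, adjusted p = 3.3e-06), with 18 high lines above all low lines. Mtkl, a paralog of Mtk, had medians of 3.69 CPM in high lines and 0.755 CPM in low lines (2.36, SE 0.30, adjusted p = 1.16e-06), and IBIN, a gene induced by infection, had medians of 1.49 and 0.052 CPM in high and low lines (3.49, SE 0.58, adjusted p = 0.000262). All 3 were also called without the 6 lines and within set AB.

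Of the 95 lower transcripts 63 were lower by more than 1 on the log2 scale, as were 15 of the 39 annotated ones. The 12 genes named for the strongest decrease all averaged 50 or more counts per library, and in all 12 the ranges of high and low lines overlapped, and log2 fold changes were between -0.84 for CG14642 (SE 0.22, adjusted p = 0.0269) and -0.23 for CG3339. CG14930 had 2.43, 5.91 and 7.91 CPM in high lines, against 4.72, 7.29 and 12.3 CPM in low lines (-0.47, SE 0.12, adjusted p = 0.0154). Nup58, a component of the nuclear pore, had 19.7, 28.8 and 42.7 CPM in high lines, against 28.6, 35.5 and 53.9 CPM in low lines (-0.33, SE 0.08, adjusted p = 0.0109). When the 6 lines were left out, 8 of the 12 missed the threshold: Nup58 (adjusted p = 0.0555), CG17118 (0.0848), CG13538 (0.0877), gom (0.0898), CG14642 (0.108), CG31055 (0.109), CG16852 (0.127) and CG32085 (0.132). The calls of CG14930, CG15482, CG14431 and CG3339 were kept. Within set AB only Nup58 (adjusted p = 0.035) and CG15482 (0.0327) of the 12 passed. CG14930 (0.0789), CG14431 (0.0684) and CG3339 (0.2645) did not pass there. In the held-out replicates none of the 12 passed edgeR's test, with the smallest adjusted p at 0.0545 for CG14642 in replicate 2.

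Females of the lines chosen on males were compared in the same way. The AMP score of females was between 2.73 and 5.78 in high lines (median 4.45) and between 1.56 and 5.04 in low lines (median 3.32), a difference in mean score of 1.28, against 2.81 in the males that chose the lines. Of the 24 high lines, 10 were among the 24 females with the highest scores and 1 among the 24 lowest. Across all 96 lines the male and female scores had a Pearson r of 0.55 (Spearman rho = 0.53, permutation p = 1e-05 for both, 1e-05 after BH adjustment over 2 relations, r = 0.55 without the 2 farthest lines). Within flow cell sets r was 0.52 in the 45 lines of set AB in females and 0.64 in the other 51.

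In these females 77 of 14804 transcripts (0.52%, with 0.263% higher) passed edgeR's test, and 10 (0.0675%) passed with flow cell set as a covariate. In females 6 of the high lines and 14 of the low lines were in set AB. AttA had 5.92, 19.2 and 65.3 CPM in high females, against 0.197, 5.75 and 35.4 CPM in low females (1.51, SE 0.38, adjusted p = 0.0484, and 0.119 with the covariate). Mtk had medians of 27.3 CPM in high females and 8.90 CPM in low females (1.30, SE 0.36, adjusted p = 0.0919), and passed with the covariate (1.76, adjusted p = 0.0133). For AttB, AttC, DptA, DptB and Dro the log2 fold changes were positive, between 0.50 and 1.17, and none passed.

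Drs, which the spermatheca of females is known to express constitutively, did not pass in females. It had 164, 269 and 623 CPM in high females, against 144, 265 and 453 CPM in low females (0.16, SE 0.12, adjusted p = 0.868), and the lowest of these females was above the highest male of a low line (42.7 CPM). Of the 80 genes in the other AMP, Bomanin, PGRP, IMD and Toll groups 77 were tested in females and only PGRP-LF passed (0.62, SE 0.13, adjusted p = 0.0122), and it had an adjusted p of 0.0546 with the covariate. The 16 Bomanins and related genes all had positive fold changes in females, with a median of 0.50.

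The difference between the sexes was tested as an interaction of sex with group, with line as a block. Only male libraries chose the lines, so genes that vary with the score can differ more in males from the choice alone. How much of the values below comes from that choice was not tested. None of 18094 transcripts passed in edgeR's test (0%), while 1396 had an unadjusted p under 0.05 and 14 passed with flow cell set as a covariate. The 5 annotated transcripts with the smallest p were CG45045 (difference of log2 fold changes, male minus female, 1.84, adjusted p = 0.0728), fon (0.38), Tengl2 (-2.44), PGRP-SB1 (0.97) and Col4a1 (0.33), the last 4 at an adjusted p of 0.107. Tengl2 had a log2 fold change of -0.08 in males and was near 0 in females, with medians of 0.0454 CPM in high females and 0 CPM in low females, and was not tested in females alone. CG45045 had medians of 5.23 CPM in high males and 0.51 CPM in low males (3.18, SE 0.39, adjusted p = 5.25e-07), and its log2 fold change in females was 1.25 (adjusted p = 0.52). In the held-out male tests CG45045 passed in replicate 2 (2.25, SE 0.49, adjusted p = 0.0135). It did not pass in replicate 1 (0.15, SE 0.50, adjusted p = 0.952).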

How the data were processed

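Libraries were made from whole flies of 96 DGRP lines on ethanol medium, 2 per line for each sex. Per the study's methods, the authors removed reads of ribosomal, microbial and repeat origin, aligned what was left to BDGP5, counted it over annotated and newly found gene models, and deposited raw counts that were neither normalized nor pooled. The submitters' processing notes name cutadapt 1.6, BWA 0.7.10, STAR 2.4.0e, HTSeq and edgeR. The table holds 40020 gene models, 17294 from FlyBase and 22726 new transcribed regions, and 16949 FlyBase identifiers were matched to a symbol. Rows that name no gene held 2.85% (no feature), 1.39% (ambiguous) and 25.8% (not unique) of tallied alignments and entered neither library sizes nor tests. The 162 ribosomal and 35 mitochondrial models, as marked by the authors, were not tested. The directional libraries used dUTP, but the strand setting of the counting is not given in the sources used here.

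Counts of the 2 replicates of a line were summed, so that a line was 1 sample, and transcripts that averaged 5 or more counts per library were tested with edgeR 4.0.16 in R 4.3.3 (TMM normalization, quasi-likelihood F-test, BH adjustment over all transcripts tested, threshold 0.05). The SE is the log2 fold change divided by the square root of F. Held-out tests used single libraries. The interaction of sex and group had line as a block. Alternatives were DESeq2 1.42.0 (size factors and test), limma 3.58.1 (voom), total counts without scaling factors, minima of 0 and 50 counts, 12 or 48 lines per group, the score as a covariate over all 96 lines, a score of 7 genes without Drs, flow cell set AB alone or as a covariate, each replicate left out, and a replicate block. The replicate block was a limma-voom fit on single libraries, with line as the block and replicate number as a covariate. In 76 male lines flow cell A held replicate 1 and flow cell B the other replicate, per the labels, and the voom fit with the block estimated a correlation of 0.54 between replicates of a line in males. Leaving out lines with female transcripts, DGRP_437 or DGRP_805 was chosen after the data were seen. Scores and figures used Python 3.11.15, NumPy 2.4.6, SciPy 1.17.1, pandas 2.3.3 and matplotlib 3.10.9.

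The groups of lines, the gene lists and the tests were chosen with earlier results of these data known. Lists were read from gene symbols. Members of the AMP, Bomanin, PGRP, IMD, Toll and JAK/STAT lists could be named. To these were added the 12 annotated genes with the largest log2 fold change in each direction among those that averaged 50 or more counts per library, passed and kept their direction in both held-out tests, the 5 annotated transcripts with the smallest interaction p, and up to 4 members of each other list with the smallest p. Genes named after their values were seen are given as such. Replicates of a line are separate pools of flies of 1 genotype.

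The male comparison and the interaction were tested on simulated counts that followed the real means and library sizes, with 200 transcripts given a log2 fold change of 1. For the male comparison edgeR found 200 of 200 among 18842 transcripts with 11 false calls, limma-voom 198 with 13 and DESeq2 200 with 29. For the interaction edgeR found 119 of 200 among 17716 with 2 false calls. These counts hold for the simulated transcripts only. All simulated transcripts had the same dispersion, whereas real transcripts differed in spread (SE 0.09 for fon and 0.25 for PGRP-SB1 in males). No effect of line was simulated, and females were simulated without a group difference. How closely the simulated spread between lines matched that of real transcripts was not tested. How many real changes of this size would be found is therefore not known. In the real males the midgut digestive enzyme gene with the largest log2 fold change, 1.50, did not pass edgeR's test. The held-out, female and block fits were not simulated. No sequences are given, and flies on standard medium were not analysed here.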

Additional observations from a re-analysis of the deposited data

Results flagged for a closer look

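Male libraries of 2 lines that were in neither group carried a signal of female markers well above that of the low lines. The summed level of the 13 markers was 917 CPM in replicate 1 of DGRP_399 and 361 CPM in replicate 1 of DGRP_324, against at most 88.7 CPM in the male libraries of the 24 low lines. Neither library entered the comparison of the 24 high and 24 low lines, but both entered the correlations of scores over all 96 lines, and DGRP_399 was among the lowest 24 lines when lines were ranked on replicate 1 alone, where its replicate 2 library was tested.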

How the results depend on the processing

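The male comparison called 435 transcripts. It called 46 with 12 lines per group, 696 with the score as a covariate over all 96 lines, 288 in set AB alone, 154 with limma-voom, 227 with a minimum of 50 counts and 661 with no filter. Without a replicate the count was between 188 and 358. With the replicate block, which also changed the test to limma-voom and the unit to single libraries, 280 were called, 197 of them among the 435. Among the genes named, this male fit did not call BomS1, spz, Sp7, Tep4, Tsf3, Irc, CG43134, CG3339 and the female transcripts, and called Ilp3. Limma-voom on summed replicates without the block also called none of 9 female markers, and 1 of 22 Toll pathway genes. Other settings gave between 307 and 477. For females the count was 77, and 13 in set AB alone, 10 with flow cell set as a covariate, 1 with a minimum of 50 counts, 265 with no filter, 5 with the replicate block, 46 without the lines with female transcripts, and between 51 and 71 without a replicate. Ranked on replicate 1 and tested in replicate 2, the count was 99, and 53 with the covariate, 14 with a minimum of 50 counts, 257 with no filter and 46 without the lines with female transcripts. Ranked on replicate 2 and tested in replicate 1, it was 81, and 17 with the covariate and 8 with a minimum of 50 counts. The interaction called 0 transcripts, and 14 with the covariate, 6 with no filter and 4 without the lines with female transcripts. In the male comparison without the lines with female transcripts, dhd reversed to a log2 fold change of -0.16. The cause of these changes was not tested.

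For part of the genes named in males, 695 values under the alternatives kept direction and call and 199 kept the direction but missed the threshold. In this tally only dhd reversed. Genes that gained a call under an alternative (upd3, apolpp, GstE9 and Ilp3) are not in these numbers. The score correlations kept direction and call over all 96 lines. Low counts bear on the calls of new regions: 36 of them were higher and 56 lower with a minimum of 5 counts, and 5 were called with a minimum of 50 counts.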

Other observations

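Some gene families picked by their names after the values were seen had mostly positive fold changes between high and low males. Of 33 proteasome subunit genes 6 were higher (Prosalpha4, Prosbeta4, Rpn11, Rpt3, Rpt4 and Rpt6), none lower, and 31 had positive fold changes with a median log2 fold change of 0.10. Without the 6 lines with female transcripts 12 were higher, and with total counts as the only scaling 2 were higher and 30 positive. Serpins, inhibitors of serine proteases that include regulators of the Toll and melanization cascades, were higher in 5 of 26 cases (Spn43Ab, Spn88Ea, Spn28Dc, Spn77Ba and Spn42Da), with a median of 0.22. Of 78 cytosolic ribosomal protein genes 74 had positive fold changes (72 with total counts as the only scaling), with a median of 0.11, and 3 were called (0 with total counts as the only scaling). Over all transcripts tested the median was -0.0020, and the count called higher was 1.79%.

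Higher transcripts outside the score were found on each large chromosome arm: 71 of 2702 tested on 2R (2.63%), 57 of 2059 on X (2.77%), 73 of 3312 on 3R (2.20%), 53 of 2617 on 2L (2.03%) and 43 of 2604 on 3L (1.65%). New transcribed regions had no arm here and are not in these counts, so the shares are not comparable with the 1.79% over all transcripts. The X count includes Yp1, Yp2, Yp3, yl and dhd, which were not called without the 6 lines with female transcripts. Of the 8 genes of the score 7 are on 2R.

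The difference in score between replicate 1 and replicate 2 was weakly related between the sexes over the 96 lines (Pearson r = 0.24, permutation p = 0.0169, Spearman rho = 0.25, permutation p = 0.0155, r = 0.21 without the 2 farthest lines), a relation looked for after the values of DGRP_805 were seen. In set AB in males (76 lines) r was 0.26 (permutation p = 0.0245), and in the other 20 lines it was 0.12 (permutation p = 0.608). It did not pass within the 48 high and low lines (r = 0.23, permutation p = 0.115), and the p-values were not adjusted.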
